A study of Mus musculus with 8 samples.

Results

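The 8 genes described here, *Slc2a2*, *G6pc2*, *Abcc8*, *Kcnj11*, *Trpm5*, *Cacna1c*, *Cacna1d* and *Cacna1a*, encode steps that lead from glucose entry into the beta cell to calcium entry. They were chosen by symbol, through the transcript accession of every probe, and were read by 13 probes of the 55681 on the array. All 13 probes were well above background on all 8 arrays and belong to the 39165 probes, and the 8 genes to the 16955 named genes, that were compared between genotypes. Where a gene had more than 1 probe, the brightest is described first.

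Islets of 7 male C57BL/6 mice fed a standard diet were picked by hand after collagenase digestion, and their RNA was read on 1-colour (Cy3) Agilent arrays. The control group, labelled CB1 WT, had 4 mice, littermates with floxed *Cnr1* alleles and no Cre (*Cnr1* flox/flox, MIP-Cre/ERT-, here β-CB1R+/+). The group labelled CB1 KO had 3 mice, with the same floxed alleles and a tamoxifen-inducible Cre driven by the mouse insulin promoter (MIP-Cre/ERT+, here β-CB1R-/-). *Cnr1* encodes the cannabinoid 1 receptor (CB1R), and mice of both genotypes in the study received tamoxifen. RNA of β-CB1R-/- mouse 2 was read on a pair of repeat arrays, which were averaged. The growth text among the labels speaks of a global knockout, whereas the title and design of the series name the beta cell-specific one, and the age of these mice is not given in the labels. Cre-positive mice with intact *Cnr1* were not on the arrays, so the Cre transgene and the loss of *Cnr1* cannot be told apart. All arrays lay on 1 slide with the genotypes on opposite sides, so position on the slide and genotype cannot be told apart either.

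In beta cells of mice, glucose enters through GLUT2, is phosphorylated and is metabolised to ATP. ATP closes the KATP channel, the membrane depolarises with help from cation channels, voltage-gated calcium channels open, and the calcium that enters triggers the release of insulin granules. CB1R is an inhibitory G protein-coupled receptor, and its activation is known to damp the opening of several voltage-gated calcium channels, so the question for these genes was whether the transcripts of this chain differed between islets with and without the receptor in beta cells.

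For *Slc2a2* and *Trpm5*, which had the most alike values across mice among these genes, the 250 bases before the transcription start are shown from the RefSeq annotation of GRCm38.p6, 5′ to 3′ on the strand of the gene, as a view of the sequence next to the start of both. They lie at chr3:28697653-28697902 on the plus strand and at chr7:143094643-143094892 on the minus strand. Capitals mark matches on either strand to CANNTG, the E-box read by NeuroD1 and related factors, or to TAAT, the core read by homeodomain factors such as PDX1 (ATTA when it lies on the other strand).
Slc2a2: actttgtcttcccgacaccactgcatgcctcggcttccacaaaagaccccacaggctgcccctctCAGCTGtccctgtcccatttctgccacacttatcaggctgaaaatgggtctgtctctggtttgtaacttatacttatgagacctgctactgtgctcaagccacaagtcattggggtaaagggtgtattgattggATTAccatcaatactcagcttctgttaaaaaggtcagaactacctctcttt
Trpm5: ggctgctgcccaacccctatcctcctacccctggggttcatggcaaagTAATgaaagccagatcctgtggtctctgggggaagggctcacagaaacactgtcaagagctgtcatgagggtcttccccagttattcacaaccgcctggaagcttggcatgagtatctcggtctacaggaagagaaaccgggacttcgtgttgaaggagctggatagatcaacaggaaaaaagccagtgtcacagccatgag
The *Slc2a2* sequence held 1 E-box, CAGCTG, at bases -185 to -180 and 1 homeodomain core at bases -51 to -48, counted back from the start. In the *Trpm5* sequence 1 homeodomain core lay at bases -202 to -199 and no E-box was found. TGACG, the half-site of the cAMP response element, was in neither window. Of 32851 RefSeq promoters of the same length, 66.2% held CANNTG, 54.9% TAAT and 17.8% TGACG, so the matches are common ones and are given as a description of these letters. *G6pc2*, *Cacna1c* and *Cacna1d* had entries with more than 1 start, and *Abcc8*, *Kcnj11* and *Cacna1a* are named only.

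*Cnr1*, the targeted gene, was read first. Its log2 intensities relative to the 75th percentile of the array, the scale used for all levels here, were -1.11, -0.77, -0.53 and -0.02 in β-CB1R+/+ mice 1 to 4 and -2.30, -3.13 and -2.28 in β-CB1R-/- mice 1 to 3. The groups did not overlap, and the mean was lower by 1.97 ± 0.33 (SE) in β-CB1R-/- islets, with an exact permutation p of 0.0286, the smallest that the 35 splits of 7 mice allow, and a limma adjusted p of 0.193. The probe was well above background on all 4 β-CB1R+/+ arrays and on 3 of 4 β-CB1R-/- arrays, and the difference was -1.08 by median pixels with normexp correction. Over all compared probes 43 of 39165, or 0.11%, passed an adjusted p of 0.05 (42 higher, 0.107%, and 1 lower, 0.00255%, in β-CB1R-/- islets). That number fell to between 0 and 32 when 1 mouse was left out, with 0 probes without β-CB1R-/- mouse 2 (727 at an unadjusted p under 0.05), 4 without mouse 3, 8 without β-CB1R+/+ mouse 3, 15 without mouse 2, 24 without mouse 4 and 26 without mouse 1. Probes well above background numbered 33347 to 40029 per array and no spot was saturated. All 9 beta cell markers were well above background on every array (*Ins1*, *Ins2*, *Iapp*, *Mafa*, *Nkx6-1*, *Pdx1*, *Ucn3*, *Slc30a8* and *Glp1r*). The 10 acinar cell markers, genes of digestive enzymes made outside islets, were too. In such whole-islet RNA, fewer cells of a type and less RNA per cell cannot be told apart.

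The array of β-CB1R+/+ mouse 2 stood apart in a region that ran from one corner to row 320 and column 40 of its spots. It covered 13 of 108 blocks, or 8320 spots, and is called the affected corner here. There the processed intensity, which Feature Extraction takes from a spot's pixels, exceeded the median pixel of many spots: 1097 of 16991 spots with a processed intensity over 200 (6.46%) were over by more than 1 on the log2 scale, against at most 3 spots on each of the other 7 arrays. In the part of that region nearest the corner 841 of 922 such spots (91.2%) were affected. The log2 difference between β-CB1R+/+ mice 2 and 3 had an SD of 0.867 over all the blocks concerned and of 0.429 elsewhere. Of the 13 probes, the brighter ones of *Cacna1c* and *Cacna1a* and the dimmer one of *Cacna1d* lay there (excess of 1.19, 2.70 and 0.74). These 3 are therefore given with and without that mouse, an alternative added after the data had been seen.

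**Figure D1:**
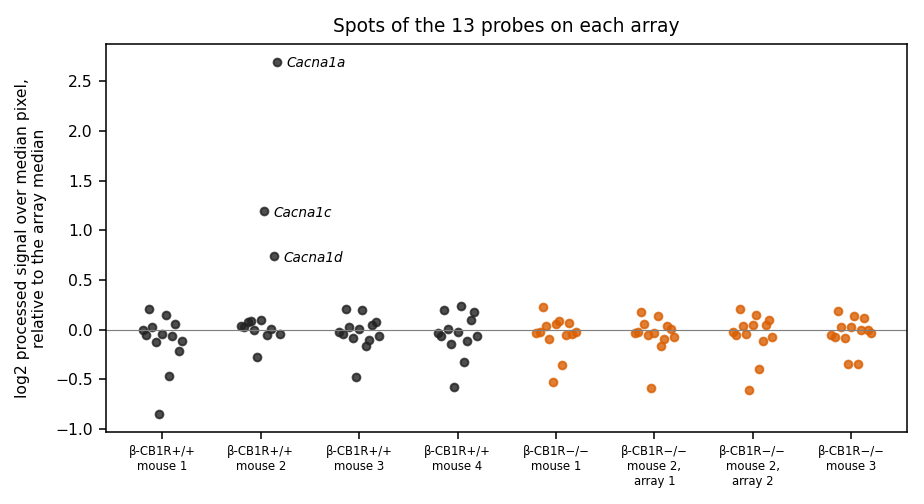
Each point is the spot of 1 of the 13 probes on 1 array. The vertical axis is the log2 ratio of the processed signal to the median pixel of the spot, relative to the median of the array. Points of β-CB1R+/+ arrays are black and those of β-CB1R-/- arrays orange. On the array of β-CB1R+/+ mouse 2 the named spots of *Cacna1a*, *Cacna1c* and *Cacna1d* stood at 2.70, 1.19 and 0.74, above those of all other arrays.

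None of the 8 genes passed the threshold between genotypes. *Slc2a2*, *Cacna1c* and *Trpm5* had the largest differences, lower in β-CB1R-/- islets by 0.74, 0.65 and 0.57 on the log2 scale, each between 1 and 2 standard errors from 0. Without its spot in the affected corner, *Cacna1c* differed by -0.33 ± 0.35, which is less than 1 standard error. For *G6pc2* and *Cacna1d* the difference was below 0.1 in size. *Kcnj11* had a mean above that of the controls, and so did *Cacna1a* once its own spot in that corner was left out, at 0.13 against -0.03 with it. The groups overlapped for every probe, and the limma adjusted p was 0.999 for each.

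*Slc2a2* encodes GLUT2, the facilitative transporter through which glucose enters mouse beta cells. Its levels were 4.61, 6.05, 5.65 and 5.24 in β-CB1R+/+ mice 1 to 4 and 4.66, 3.97 and 5.30 in β-CB1R-/- mice 1 to 3. The lowest value was that of β-CB1R-/- mouse 2 and the highest that of β-CB1R+/+ mouse 2, but the lowest control lay below 2 of the 3 β-CB1R-/- mice. The mean was 5.39 ± 0.61 (SD, n = 4) against 4.65 ± 0.67 (SD, n = 3), a fold of 0.597 with a 95% interval of 0.306 to 1.17, and the exact permutation p was 0.229. Values on both sides of 1 lie within that interval. The repeat arrays of β-CB1R-/- mouse 2 read 3.97 and 3.98, closer to each other than any pair of mice of 1 genotype. Without β-CB1R+/+ mouse 1 the log2 difference was -1.004, and without β-CB1R-/- mouse 3 it was -1.07, while without β-CB1R-/- mouse 2 it was -0.41.

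*G6pc2* encodes the islet glucose-6-phosphatase, which takes the phosphate off glucose-6-phosphate. Levels were 6.66, 7.21, 6.83 and 6.498 in the controls and 6.42, 6.39 and 7.41 in β-CB1R-/- mice. Within the β-CB1R-/- group mouse 3 stood above all controls and the other two below all controls. The log2 difference was -0.06 ± 0.31 (SE; 95% interval -0.78 to 0.65; exact permutation p = 0.857), and it was 0.07 without β-CB1R+/+ mouse 2, 0.10 without β-CB1R-/- mouse 1, 0.11 without β-CB1R-/- mouse 2 and -0.40 without β-CB1R-/- mouse 3.

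The KATP channel is built from SUR1, the sulfonylurea receptor encoded by *Abcc8*, and Kir6.2, the pore encoded by *Kcnj11*, which are neighbouring genes on mouse chromosome 7. The brighter *Abcc8* probe read 7.75, 8.20, 8.13 and 7.82 in controls and 7.52, 7.48 and 8.22 in β-CB1R-/- mice. By this probe β-CB1R-/- mouse 3 was again above every control, by a small margin, and the other β-CB1R-/- mice were below every control. Mouse 3 lay below control mouse 2 by the dimmer probe (8.09 against 8.26) and by the median pixel of the brighter one (7.98 against 8.17). The log2 difference of the brighter probe was -0.23 ± 0.25 (95% interval -0.81 to 0.35; exact permutation p = 0.4), and the dimmer probe gave -0.26 ± 0.25. With 1 mouse left out the brighter probe ran from -0.47, without β-CB1R-/- mouse 3, to -0.10, without β-CB1R-/- mouse 2, and the dimmer one from -0.48 to -0.13.

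The brighter *Kcnj11* probe read 0.54, 0.41, 0.21 and -0.07 in controls and 0.04, 0.40 and 0.76 in β-CB1R-/- mice. Here the difference was 0.13 ± 0.25 (95% interval -0.44 to 0.70; exact permutation p = 0.629), and -0.04 ± 0.24 by the dimmer probe, so the probes had opposite signs, both within 1 SE of 0. Without β-CB1R-/- mouse 3 the brighter probe gave -0.05. A change of the pore beyond a fold of 0.736 to 1.62 lay outside the interval of the brighter probe. The other subunits of the family, *Abcc9* (SUR2) and *Kcnj8* (Kir6.1), differed by 0.37 ± 0.26 and 0.87 ± 0.86, and *Kcnj8* was well above background on only 1 of 4 β-CB1R+/+ and 3 of 4 β-CB1R-/- arrays. Its difference ran from 0.34 to 1.42 with 1 mouse left out, and was 1.25 with the first and 0.50 with the second repeat array of β-CB1R-/- mouse 2 alone, and 0.069 by median pixels with normexp correction.

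*Trpm5* encodes a calcium-activated cation channel that helps to depolarise beta cells. It read 2.76, 4.31, 4.02 and 3.73 in controls and 3.06, 2.60 and 3.76 in β-CB1R-/- mice. Of the controls 2 lay above all β-CB1R-/- mice, and control mice 1 and 4 lay among them. The log2 difference was -0.57 ± 0.42 (95% interval -1.53 to 0.40; exact permutation p = 0.314), and with 1 mouse left out it ran from -0.88, without β-CB1R+/+ mouse 1 or β-CB1R-/- mouse 3, to -0.30, without β-CB1R-/- mouse 2. Its relatives *Trpm2* and *Trpm4* differed by 0.12 ± 0.22 and 0.24 ± 0.30, and with 1 mouse left out these ran from 0.0072 to 0.25 and from 0.014 to 0.44.

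*Cacna1c* and *Cacna1d* encode the L-type pores CaV1.2 and CaV1.3, and *Cacna1a* the P/Q-type pore CaV2.1. The brighter *Cacna1c* probe read 2.30, 3.99, 3.01 and 2.81 in controls and 2.07, 2.02 and 3.05 in β-CB1R-/- mice. Its highest value was the affected spot of β-CB1R+/+ mouse 2. The log2 difference was -0.65 ± 0.43 (95% interval -1.64 to 0.35; exact permutation p = 0.229) with that spot and -0.33 ± 0.35 (95% interval -1.16 to 0.50) without it. With 1 of the other mice left out it ran from -0.98, without β-CB1R-/- mouse 3, to -0.47, without β-CB1R-/- mouse 2. The dimmer *Cacna1c* probe, outside the corner, gave -0.20 ± 0.28.

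*Cacna1d* read 0.63, 1.01, 0.61 and 0.47 in controls and 0.37, 0.69 and 0.77 in β-CB1R-/- mice by its brighter probe. This was a difference of -0.07 ± 0.21 (95% interval -0.56 to 0.41; exact permutation p = 0.714), whereas the dimmer probe gave 0.18 ± 0.21, and 0.10 ± 0.22 without the affected spot. Both probes varied little between mice of a genotype, and a change beyond a fold of 0.679 to 1.33 lay outside the interval of the brighter one.

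For *Cacna1a* the brighter probe read 0.90, 1.90, 1.47 and 1.33 in controls and 1.12, 1.51 and 1.47 in β-CB1R-/- mice, the 1.90 being the affected spot. The log2 difference was -0.03 ± 0.27 (95% interval -0.65 to 0.58; exact permutation p = 0.971), and 0.13 ± 0.24 (95% interval -0.44 to 0.71) without that spot. The dimmer probe, which was not in the corner, gave 0.06 ± 0.19, with an interval of the fold of 0.767 to 1.42, the narrowest of the 13. The genotypes overlapped by both probes of the P/Q-type pore.

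**Figure D2:**
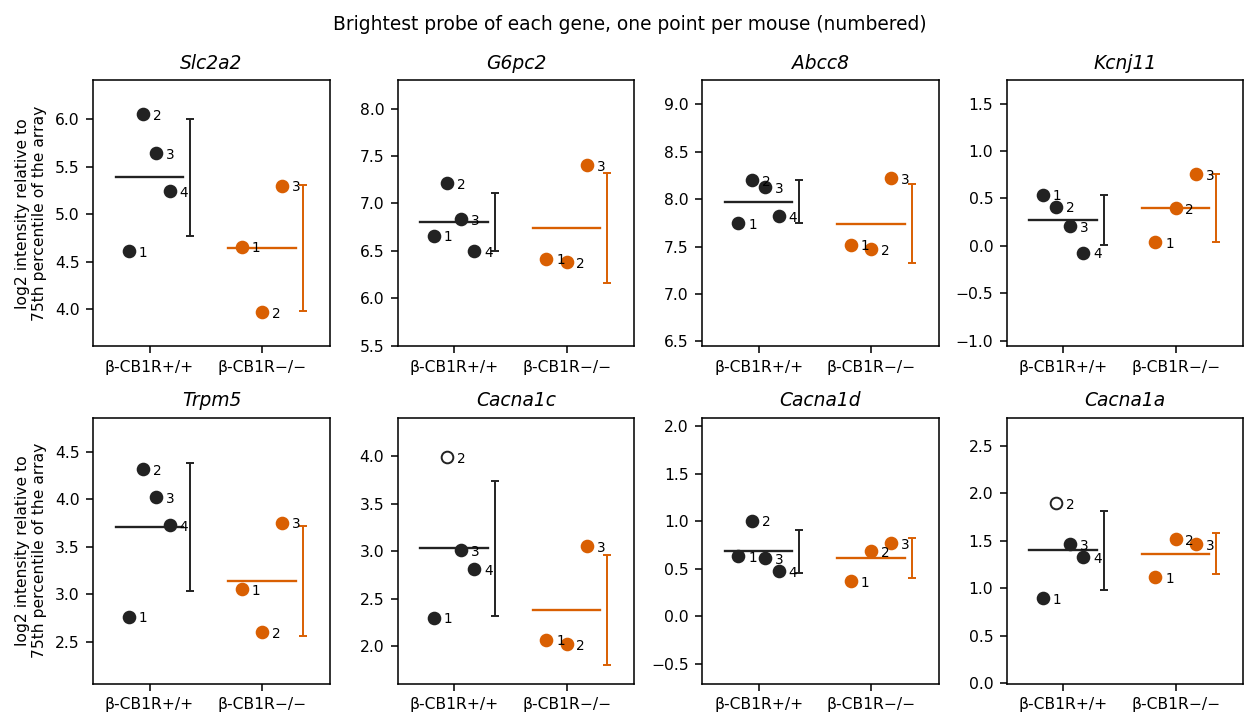
Each panel shows the brightest probe of 1 gene. The vertical axis is the log2 intensity relative to the 75th percentile of the array, spanning the same range in every panel. Numbered points are mice, horizontal lines are means, error bars are SDs, and open points are the affected spots of β-CB1R+/+ mouse 2. The genotypes overlapped in all 8 panels, and β-CB1R-/- mouse 3 was the highest of its genotype in 7 of them.

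**Figure D3:**
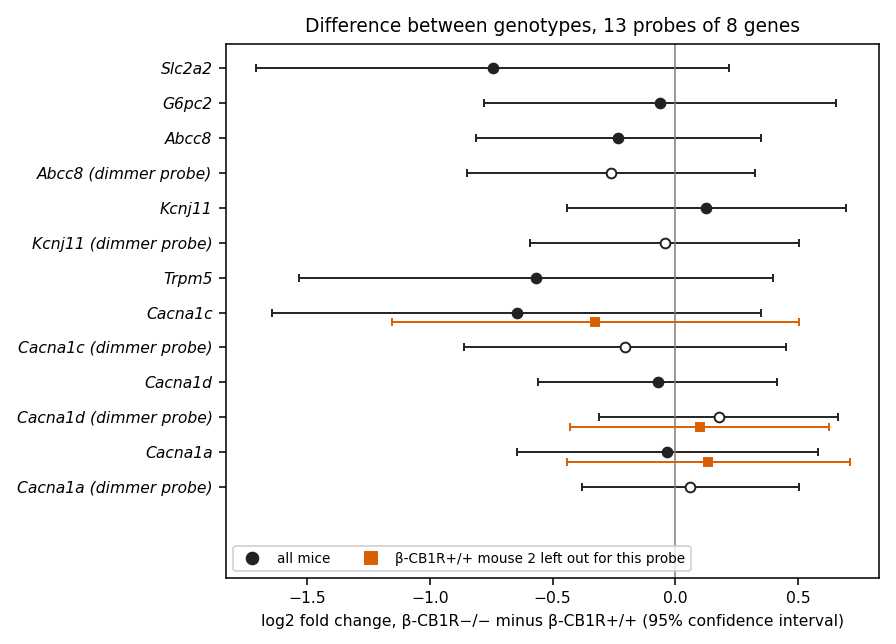
Points are log2 differences, β-CB1R-/- minus β-CB1R+/+, with 95% confidence intervals from limma for the 13 probes, filled for the brightest probe of a gene and open for the dimmer one. Orange squares leave out the affected spot of β-CB1R+/+ mouse 2. All intervals included 0, and the widest were those of *Slc2a2*, *Trpm5* and *Cacna1c*.

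Counted together, 0 of the 8 genes had an adjusted p under 0.05, where 0.171% of all named genes did by their brightest probe (limma, Benjamini-Hochberg), and 0 had an unadjusted p under 0.05, where 3.9% of named genes did. None had groups that did not overlap, against 4.83% of named genes. With 8 genes, counts of 0 are near what those shares give. Of the 8 genes 1 lay above 0 and 7 below, with a median of -0.15 (2 above and 6 below, with the same median, without the affected corner), and among all named genes 44.3% lay above 0 with a median of -0.04. Without β-CB1R+/+ mouse 1, *Slc2a2* and *Trpm5* had an unadjusted p under 0.05, and *Slc2a2* did without β-CB1R-/- mouse 3. The lowest adjusted p of any of the 13 probes under any alternative was 0.507, and a p above the threshold does not show that the levels were equal.

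The genes differed in how far mice of 1 genotype lay apart. Within genotypes the SD was 0.64 for *Slc2a2*, 0.64 for *Trpm5* and 0.66 for *Cacna1c*, higher than for 80.9%, 81.0% and 82.7% of compared probes, the last value including the affected spot. The brighter *Cacna1d* probe stood at 18.3% and the dimmer *Cacna1a* probe at 8.90% on the same ranking. For the brightest probe of each gene the repeat arrays of β-CB1R-/- mouse 2 differed by -0.11 to 0.14.

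The same mice were high for most of the genes. Among controls mouse 2 was the highest for 7 of the 8 genes and mouse 1 the lowest for 5, and among β-CB1R-/- mice mouse 3 was the highest for 7 and mouse 2 the lowest for 5. Averaged over the 8 genes, the deviation from the genotype mean was -0.39, 0.48, 0.08 and -0.18 in controls and -0.22, -0.25 and 0.46 in β-CB1R-/- mice. Of the brightest probes, all but those of *Cacna1c* and *Cacna1a* lay outside the affected corner, and control mouse 2 was also highest for *Slc2a2* and *Trpm5* by the median pixel (6.06 and 4.26 there). By the median pixel it was the highest control for 6 of the 8 genes, and for the brighter *Cacna1a* probe it was the lowest of all mice (-0.76).

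The acinar marker list ran the other way across mice. Its mean deviation from the genotype mean was 0.38, -0.69, 0.16 and 0.14 in controls and 0.32, 0.32 and -0.64 in β-CB1R-/- mice, so the list was lowest in the 2 mice in which the 8 genes were highest. The duct cell, stellate cell and fibroblast, and immediate-early lists were also lowest in these mice within their genotype. The pattern was thus not particular to acinar markers. Among these markers, *Cpa1* was instead highest of the controls in mouse 2 (11.07). The acinar probes were not checked against the affected corner. The beta cell list deviated by -0.08, 0.18, 0.09 and -0.19 in controls and -0.05, -0.19 and 0.24 in β-CB1R-/- mice. Between genotypes 9 of 10 acinar markers lay above 0 with a median of 0.17 (summed level 9070 to 17000 in controls and 9400 to 18100 in β-CB1R-/- mice, in multiples of the 75th percentile of the array), and 8 of 9 beta cell markers lay below 0 with a median of -0.19 (summed level 3850 to 5120 and 3090 to 4620). In neither list did a gene have an unadjusted p under 0.05. Of the alpha cell markers 5 of 6 lay below 0, with a median of -0.67. Their summed level did not overlap between genotypes (977 to 1310 in controls and 776 to 938 in β-CB1R-/- mice). An unadjusted p under 0.05 (limma) was seen for 3 of the 6, against 3.9% of named genes, and none passed after adjustment. Of the delta and PP cell markers 3 of 4 lay below 0, with a median of -0.36 and no unadjusted p under 0.05. All 6 macrophage markers lay above 0, with a median of 0.50 (summed level 41.0 to 53.4 and 50.9 to 87.1), as did all 6 stellate cell and fibroblast markers, with a median of 0.94 (4.76 to 60.5 and 16.7 to 28), with no unadjusted p under 0.05 in either list. The part of any of these lists in the differences of the 8 genes was not tested.

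**Figure D4:**
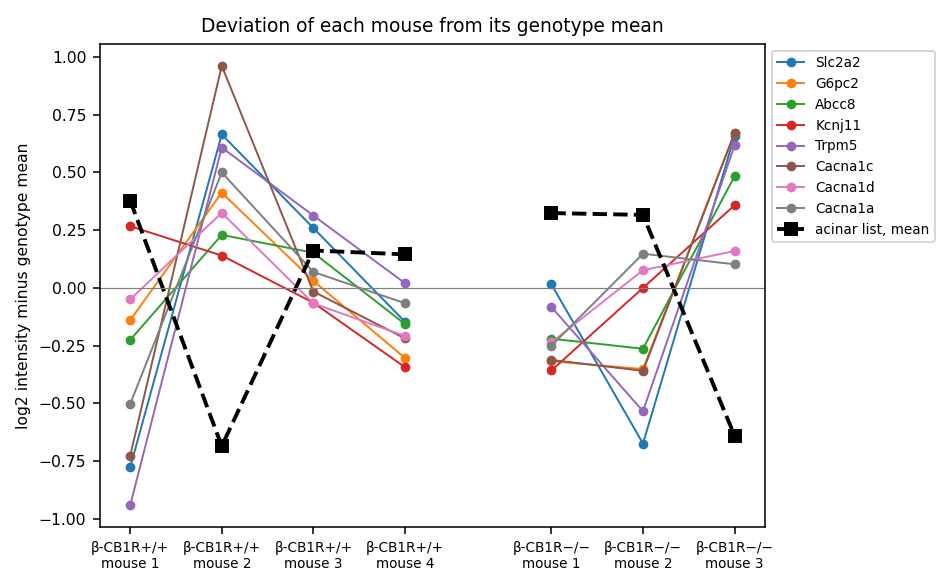
The vertical axis is the log2 intensity of each mouse minus the mean of its genotype. Coloured lines are the 8 genes by their brightest probes and the dashed black line is the mean of the 10 acinar markers. The acinar mean was lowest in β-CB1R+/+ mouse 2 (-0.69) and β-CB1R-/- mouse 3 (-0.64), where most of the 8 genes were highest.

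Over the 7 mice, with genotype means subtracted, the 28 pairs of the 8 genes all had a Pearson r above 0, with a median of 0.73 (0.62 without the affected corner and 0.61 to 0.85 with 1 mouse left out). Without the 2 mice farthest from the median of the first gene of a pair, r was below 0 for 6 of the 28 pairs. *Slc2a2* and *Trpm5* were the most alike pair (r = 0.977, rho = 0.929, and r = 0.961 without the 2 mice farthest from the median of *Slc2a2*), and neither rests on the corner. *G6pc2* and *Abcc8* followed with r = 0.959. The KATP subunits *Abcc8* and *Kcnj11* had r = 0.551, and r = -0.05 without 2 mice, and the least alike pair was *Kcnj11* and *Trpm5* with r = 0.0579. All values share the same 7 RNA samples, and high correlations were common on these arrays, since between 233 (*Kcnj11*) and 1508 (*G6pc2*) of 16939 genes had an r above 0.9 to a given one of the 8. The nearest gene was *P2ry10b* for *Slc2a2* (r = 0.995), *Fam3a* for *G6pc2* (0.999), *Pdzd4* for *Abcc8* (0.997), *Phc1* for *Kcnj11* (0.993), *Retreg3* for *Trpm5* (0.999), *Asphd1* for *Cacna1d* (0.997) and *Slc14a2* for *Cacna1a* (0.997). *Fam3a* and *Slc14a2* had spots in the affected corner. *Fos*, an immediate-early gene, split the mice in another way (-0.82, -1.59, 6.31 and 5.34 in controls and 0.75, 5.84 and -0.71 in β-CB1R-/- mice).

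The other genes of the same chain were read from 8 lists of 86 genes, 78 of them compared. None passed the adjusted threshold (limma, smallest adjusted p 0.283), 30 lay above 0 and 48 below, and the median was -0.11. At an unadjusted p under 0.05, 1 was higher and 5 were lower, where 1.88% and 2.02% of named genes were. Groups did not overlap for 7 of the 78, 2 higher (*Kcnk10* and *G6pc*) and 5 lower (among them *Kcnk3*, *Kcnn2*, *Trpc4* and *Cacna2d2*), against 4.83% of named genes. Of these, *G6pc* was well above background on 1 of 4 β-CB1R+/+ and 3 of 4 β-CB1R-/- arrays. It was thus compared mainly through the group in which it was higher.

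*Kcnk10*, which encodes the background potassium channel TREK2, had the smallest unadjusted p of the potassium channels. It read -1.86, -2.22, -3.23 and -2.89 in controls and -0.88, -0.83 and -0.77 in β-CB1R-/- mice, a difference of 1.72 ± 0.33 (adjusted p = 0.355, limma; exact permutation p = 0.0286) and of 0.90 by median pixels with normexp correction. Of 18 potassium channel genes 5 lay above 0 and 13 below, with a median of -0.22.

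*Trpc4*, encoding a receptor-operated cation channel, was named for the smallest unadjusted p of its list. It read -0.76, -0.57, -0.46 and -0.68 in controls and -1.41, -1.89 and -1.85 in β-CB1R-/- mice. The difference was -1.10 ± 0.20 (adjusted p = 0.283, limma; exact permutation p = 0.0286), -0.58 by median pixels with normexp correction and -1.08 without the spot of control mouse 2, which was in the affected corner. It was 1 of 17 depolarising cation and sodium channel genes, of which 7 lay above 0 and 10 below with a median of -0.06.

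Of the other calcium channel pores, 3 of 5 compared lay above 0, with a median of 0.11. *Cacna1b* (N-type) differed by -0.05 ± 0.29 and was well above background on 2 of 4 β-CB1R+/+ and 3 of 4 β-CB1R-/- arrays. *Cacna1h* (T-type) was at -0.28 ± 0.20 (95% interval -0.75 to 0.18; exact permutation p = 0.114), or -0.37 without its affected spot, and *Cacna1e* (R-type) was well above background on 0 of 8 arrays. Of the auxiliary subunits, which traffic and tune the pores, 4 of 10 lay above 0. *Cacna2d1* differed by -0.60 ± 0.33 (95% interval -1.37 to 0.17; exact permutation p = 0.171), *Cacna2d2* by -0.94 ± 0.39 (95% interval -1.83 to -0.05; adjusted p = 0.999, limma; exact permutation p = 0.0857), *Cacnb2* by -0.03 ± 0.23 (-0.30 as the mean of its compared probes) and *Cacnb3* by 0.02 ± 0.30.

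At the glucose end of the chain, *Slc2a1* (GLUT1) differed by 0.11 ± 0.23, *Slc2a3* (GLUT3) by -0.46 ± 0.33 (-0.68 to -0.25 with 1 mouse left out, and -0.22 with normexp correction) and *G6pc3*, the ubiquitous glucose-6-phosphatase, by 0.02 ± 0.25. Without its spot in the affected corner, *G6pc3* was at 0.19. *G6pc*, the liver form, was 0.72 ± 0.32 higher with groups apart, but it was well above background on 1 of 4 β-CB1R+/+ and 3 of 4 β-CB1R-/- arrays. Its highest level, -2.14, was that of β-CB1R-/- mouse 1, without which the difference was 0.32, and it was 0.20 by median pixels with normexp correction. Among 8 genes of glucose phosphorylation and dephosphorylation 5 lay above 0 with a median of 0.04. Calcium store and clearance genes lay below 0 in 13 of 16 cases, with a median of -0.26, and in that list *Slc8a2*, a sodium-calcium exchanger, was at -1.05 ± 0.39 (exact permutation p = 0.0857) with all mice and at -0.78 without its affected spot.

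**Figure D5:**
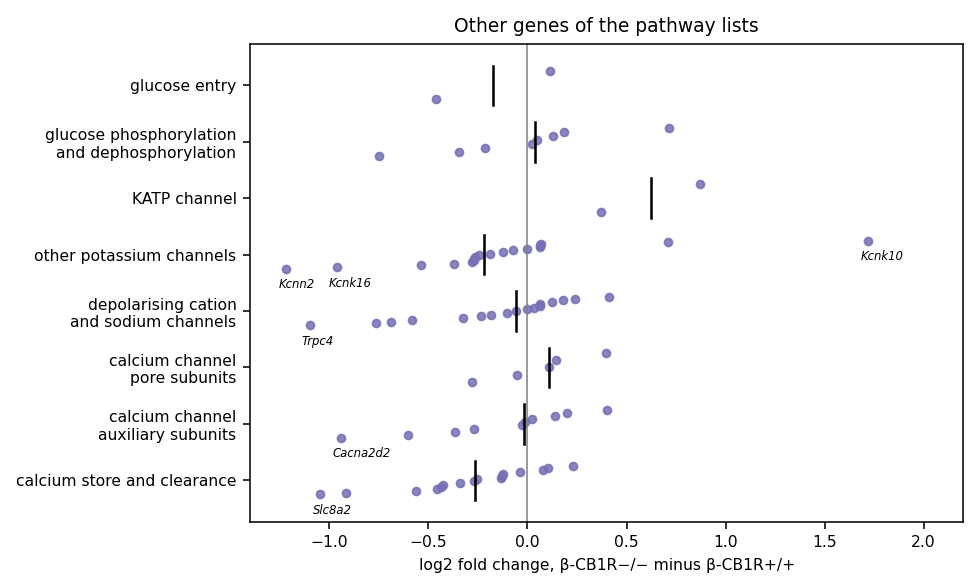
Each point is 1 of the 78 other genes of the chain by its brightest probe. The horizontal axis is the log2 difference, β-CB1R-/- minus β-CB1R+/+, and the black bar is the median of the list. Genes with an unadjusted limma p under 0.05 are named. The potassium channels spread from -1.22 (*Kcnn2*) to 1.72 (*Kcnk10*), and no gene passed the adjusted threshold.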

How the data were processed

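Islet RNA of 4 β-CB1R+/+ and 3 β-CB1R-/- mice was measured on 8 one-colour arrays. The authors deposited, per the file headers, the intensity of each spot as given by Feature Extraction 11.5.1.1, background-subtracted and not scaled between arrays, for a design annotated on mm9:NCBI37:Jul2007. The authors also deposited a Z score per spot, which lay within 0.00503 of the standardised log10 intensity and was used as an alternative. Log2 intensities of 59305 non-control spots had the 75th percentile of their array subtracted, spots marked as non-uniform or population outliers were left out, spots of a probe and then the repeat arrays were averaged, and probes well above background in at least 3 mice were compared with limma 3.58.1 in R 4.3.3 (two-sided, Benjamini-Hochberg, threshold 0.05). Differences are given with limma's standard error and 95% interval. Exact two-sided permutation tests ran over the 35 splits of the mice. They were not adjusted over genes. Since mice are the replicates and there are 7, their number limits the precision. Accessions were matched to RefSeq symbols (28020 of 55681 probes had 1 symbol, 22129 of those compared).

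The 8 genes, the lists and the tests were chosen with earlier results of these data known. Named genes were the 8, *Cnr1*, *Fos*, fixed relatives, the gene with the smallest unadjusted p in each list, and the gene with the highest r to each of the 8. *Kcnk3* and *Kcnn2* were named with their values known. Some genes that the rule names are not reported here. Alternatives were normexp background correction (offset 50, on median pixels, as mean pixels were not in the files), quantile normalisation, the deposited Z scores, other filters, either repeat array alone, a replicate block, an intensity trend, the methods' t-test, the mean of all probes and each mouse left out. The pipeline was tested on simulated data.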

Additional observations from a re-analysis of the deposited data

Results flagged for a closer look

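In β-CB1R+/+ islets, *Slc2a1* (GLUT1) had 1 mouse far from the others. Mouse 3 read 0.52 on the log2 scale, against 0.86 to 0.90 in the other 3 controls, a gap of 0.902 of the whole range, above Dixon's critical value for 4 samples. This was 1 of 39 groups examined, and chance alone gives such a gap in about 1 of 20 groups. The spot of mouse 2 for this probe lay in the affected corner of its array.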

How the results depend on the processing

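No setting brought any of the 8 genes or of the 78 other chain genes past the adjusted threshold. Apart from settings that leave out a mouse, 444 of 457 values of named genes kept their sign and their side of the threshold, and 13 had the other sign. With normexp on median pixels *Cacna1a* was at 0.58, *Cacna1h* 0.018, *Cacnb3* -0.0092 and *Fam3a* 0.22, of which *Cacna1a*, *Cacna1h* and *Fam3a* have a spot in the affected corner, and leaving the corner out gave *Cacna1a* 0.13. Under normexp, 15 of 39 named values were smaller by over 1.5 times with the same sign, among them *Kcnk10* (0.90), *Trpc4* (-0.58), *Cnr1* (-1.08), *G6pc* (0.20) and *Cacna1c* (-0.33), and 5 were larger by over 1.5 times. The deposited Z scores gave *G6pc3* -0.0058. Array 2-1 alone gave *Cacna1b* 0.036, array 2-2 alone the dimmer *Kcnj11* probe 0.031, and the mean of all probes *Cacna1d* 0.053 and *Cacna1a* 0.014. With the replicate block, *Fos* was at 0.66, *G6pc3* -0.064 and *Cacnb3* -0.027, and 0 probes of all passed (1714 at an unadjusted p under 0.05). Same-numbered mice correlated at 0.42, -0.27 and -0.06 in their deviations, too few pairs to tell whether the numbers pair the mice. The 43 probes past the threshold became 23 without a filter, 24 with probes above background on all 8 arrays, and 0 by the methods' t-test after Benjamini-Hochberg adjustment (1412 probes before it, with 0 of the 8 genes and 5 others of the chain, among them *Kcnk3*, *Kcnn2*, *Trpc4* and *Kcnk10*), and ranged from 0 to 32 with 1 mouse left out. With 1 mouse left out, 33 of 273 values had the other sign. The ranges were -0.40 to 0.11 for *G6pc2*, -0.052 to 0.31 for *Kcnj11*, -0.17 to 0.100 for its dimmer probe, -0.44 to 0.040 for the dimmer *Cacna1c* probe, -0.15 to 0.046 for *Cacna1d*, -0.20 to 0.13 for *Cacna1a*, -0.021 to 0.15 for its dimmer probe, -0.31 to 0.10 for *Cacna1b*, -0.17 to 0.090 for *Cacnb2*, -0.20 to 0.25 for *Cacnb3*, -0.095 to 0.23 for *Slc2a1*, -0.080 to 0.19 for *G6pc3*, -2.29 to 0.98 for *Fos* and -0.095 to 0.39 for *Retreg3*. The causes were not tested. A block for slide or scan day was not run, since there was 1 slide and 1 scan day.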
